A study of Mus musculus with 27 samples.

Results

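The glutathione transferases described here are 10 mouse genes, chosen by symbol and matched to the Ensembl IDs of the deposited count table, which holds 48440 genes. They are Gsta3 and Gsta4 of the alpha class, Gstm1, Gstm2 and Gstm5 of the mu class, Gstp1 of the pi class, Gsto1 of the omega class, Gstt1 and Gstt3 of the theta class and the membrane-bound Mgst1. All 10 were found, are annotated as protein coding and passed the filter on low counts. Glutathione transferases join the tripeptide glutathione to electrophiles, among them drugs and products of lipid peroxidation, which makes these compounds more soluble and ready for export. The classes differ in their preferred substrates, and some members also reduce peroxides or exchange thiols. Many of the genes carry antioxidant response elements, to which the transcription factor NRF2 binds with small MAF proteins, and some respond to the aryl hydrocarbon receptor.

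Total RNA of primary lung fibroblasts from wild-type C57BL/6 mice was sequenced in 27 libraries, 3 in each of 9 groups. Cells were kept in KU60019, which inhibits the DNA damage kinase ATM, or in its vehicle DMSO. The labels give a dose of 3 uM. The groups were KU60019 for 15 d, KU60019 for 15 d followed by removal, KU60019 for 35 d, KU60019 for 35 d followed by removal, irradiated cells, and DMSO for 15 d, DMSO for 15 d followed by removal, DMSO for 35 d and DMSO for 35 d followed by removal. Removal groups were harvested 20 d after the agent was taken away. Against the groups before removal, the effect of removal cannot be told apart from that of 20 more days of culture. Irradiated cells received 10 Gy of X-rays and were harvested 10 d later, as the study's positive control for senescence, and no unirradiated group of that culture time is labelled. All cells grew in medium with 15% serum at 3% oxygen. The 3 libraries of a group carry names such as S1_705, S2_715 and S3_716, and the same 3 end numbers recur in every group. Nothing in the labels tells whether the 3 came from different mice or cultures, and p-values here may thus reflect technical spread alone.

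Total counts ran from 20659745 to 50859493 per library, with a median of 31265114. All 10 fibroblast markers were detected in every group, and their summed level ranged from 12300 to 63400 CPM, that is, read counts scaled to library size. Summed levels reached at most 71.8 CPM for the 10 epithelial markers, 109 CPM for the 7 Schwann cell markers, 122 CPM for the 11 macrophage markers, 144 CPM for the 12 endothelial markers and 148 CPM for the 7 mesothelial markers. The 7 adipocyte markers were the highest list after the fibroblast one, at 192 to 876 CPM. Lpl, Plin2 and Fabp4 carried that sum, reaching 731, 260 and 188 CPM. Pparg reached 6.17 CPM, and Adipoq, Plin1 and Cidec stayed at or below 0.279 CPM in all 27 libraries. The highest epithelial and mesothelial sums were both in the group DMSO 35 d followed by removal. In 7 DMSO libraries the deviation of a gene from its mean over all 27 libraries rose with its length. Rank correlations were 0.371 to 0.45 there and -0.31 to 0.105 in the other 20 libraries. Each value is relative to the mean of all 27, so the 20 are not shown to be free of a trend. The limit was 0.3 for positive correlations alone, and S22_705 (-0.31) and S21_716 (-0.306) were not set apart. These 7 are 2 of the 3 libraries of DMSO 15 d, 2 of the 3 of DMSO 35 d and all 3 of DMSO 15 d followed by removal. Results were therefore also computed without them, where a group kept a library. In the text below, levels are CPM scaled by TMM factors (mean ± SD, n = 3 per group), per-library values follow the order of the end numbers from low to high, and differences are log2 fold changes ± SE. A gene was called at an edgeR adjusted p under 0.05, and adjusted p-values are edgeR's. Shares of all genes called are also those of the edgeR fit, and counts of the 10 in other fits stand without a share.

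RefSeq promoter windows (GRCm38.p6, 250 bases before to 50 bases after the start) were found for 9 of the 10 genes, all but Gsta4, with 12 windows in all. The core of the antioxidant response element, TGACNNNGC read on either strand, is in 3 of the 12 windows, against 12.4% of 32851 promoters of the same length. Only this strict form was searched, so a window said to lack it may hold a variant. The Gstp1 window has tgagtcagc, which differs from it in 1 letter. Those 3 windows belong to Gsta3, Gstm5 and Mgst1. They are printed with the window of Gsto1, picked with its values known as 1 of the 6 genes whose windows lack these letters. In KU60019 against DMSO cells after removal at 35 d, the 3 genes with the core rose, as did Gstm1, Gstm2 and Gstt1, which lack it. Gsto1 fell there, and Gstp1 and Gstt3, which also lack it, were not called. Each is written 5′ to 3′ on the plus strand of its chromosome, which is also the strand of the gene, with the core in capitals.
Gsta3, chr1:21240335-21240634, core at -121: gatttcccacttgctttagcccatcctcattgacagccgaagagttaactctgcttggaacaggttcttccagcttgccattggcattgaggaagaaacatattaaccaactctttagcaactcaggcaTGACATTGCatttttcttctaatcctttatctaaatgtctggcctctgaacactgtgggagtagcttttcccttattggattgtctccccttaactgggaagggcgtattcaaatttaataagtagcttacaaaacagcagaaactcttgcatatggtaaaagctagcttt
Gstm5, chr3:107895604-107895903, core at -42: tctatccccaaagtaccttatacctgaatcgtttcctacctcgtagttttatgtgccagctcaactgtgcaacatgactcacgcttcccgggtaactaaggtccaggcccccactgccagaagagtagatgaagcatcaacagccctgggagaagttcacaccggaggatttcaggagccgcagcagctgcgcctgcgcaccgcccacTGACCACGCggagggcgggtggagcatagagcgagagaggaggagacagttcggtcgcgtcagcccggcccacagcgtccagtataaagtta
Mgst1, chr6:138140277-138140576, core on the reverse strand at -56: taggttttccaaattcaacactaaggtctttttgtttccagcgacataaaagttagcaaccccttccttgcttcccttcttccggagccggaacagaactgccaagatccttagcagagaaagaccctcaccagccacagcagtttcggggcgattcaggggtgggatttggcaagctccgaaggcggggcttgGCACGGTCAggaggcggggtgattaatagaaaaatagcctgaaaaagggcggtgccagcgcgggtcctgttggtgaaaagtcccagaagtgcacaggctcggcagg
Gsto1, chr19:47854723-47855022, no core: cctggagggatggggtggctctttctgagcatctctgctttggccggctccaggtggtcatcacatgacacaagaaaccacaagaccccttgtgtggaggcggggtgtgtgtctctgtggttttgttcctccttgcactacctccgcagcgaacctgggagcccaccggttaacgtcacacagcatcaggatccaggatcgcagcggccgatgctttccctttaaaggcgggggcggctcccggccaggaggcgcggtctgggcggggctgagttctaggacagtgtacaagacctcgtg
Positions count from the annotated start. The core of the element bound by the aryl hydrocarbon receptor, GCGTG on either strand, is in 4 of the 12 windows (those of Gstm1, Gstm5 and Gstp1), against 32.4% of all promoters, and in Gstm5 1 of its 2 matches overlaps the antioxidant core. The 2 windows of Gstm1 overlap and hold the same match, which is thus counted in both. The letters of a TATA box, TATAAA on either strand, are in 1 window each of Gstm1, at -30, and Gstm5, at 41 and so after the annotated start, against 13.6% of all promoters. A match is a description of letters and not a site shown to be bound.

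Per length, the mu class gene Gstm2 had the highest mean level over all 27 libraries, 372 TPM, the length-scaled unit in which levels of different genes can be set side by side. Gstp1 averaged 275 TPM, Mgst1 237 TPM, Gstm1 194 TPM, Gsto1 143 TPM, Gstm5 110 TPM and Gstt1 89.3 TPM. Gsta4 (17.6 TPM), Gstt3 (15.8 TPM) and Gsta3 (1.5 TPM) were lowest. In CPM the ratio of the highest to the lowest group mean was 101 for Gsta3, 7.54 for Gsto1, 6.91 for Gsta4 and 5.02 for Mgst1. It was 1.68 for Gstt3, the steadiest of the 10 in that unit. Group means in TPM ran from 8.93 to 19.4 for Gstt3 and from 226 to 368 for Gstp1, so the order differs there. Of the 80 neighbouring pairs in the orders of group means, 15 had library ranges that did not overlap. In 8 of the 10 genes the lowest mean was that of DMSO 35 d followed by removal. For Gsta3 the steps without overlap lay between KU60019 35 d and irradiated cells and between DMSO 15 d followed by removal and DMSO 35 d followed by removal. For Gsto1 they lay below DMSO 35 d followed by removal, below KU60019 15 d, and between KU60019 35 d followed by removal and KU60019 35 d. Mgst1 had such steps between KU60019 35 d and KU60019 15 d, between KU60019 15 d and DMSO 15 d followed by removal, and above DMSO 35 d followed by removal. Gsta4 had 2 of them, Gstm1, Gstm2, Gstm5, Gstp1 and Gstt1 had 1 each, and Gstt3 had none, so most neighbours in these orders did not differ beyond their spread.

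**Figure D1:**
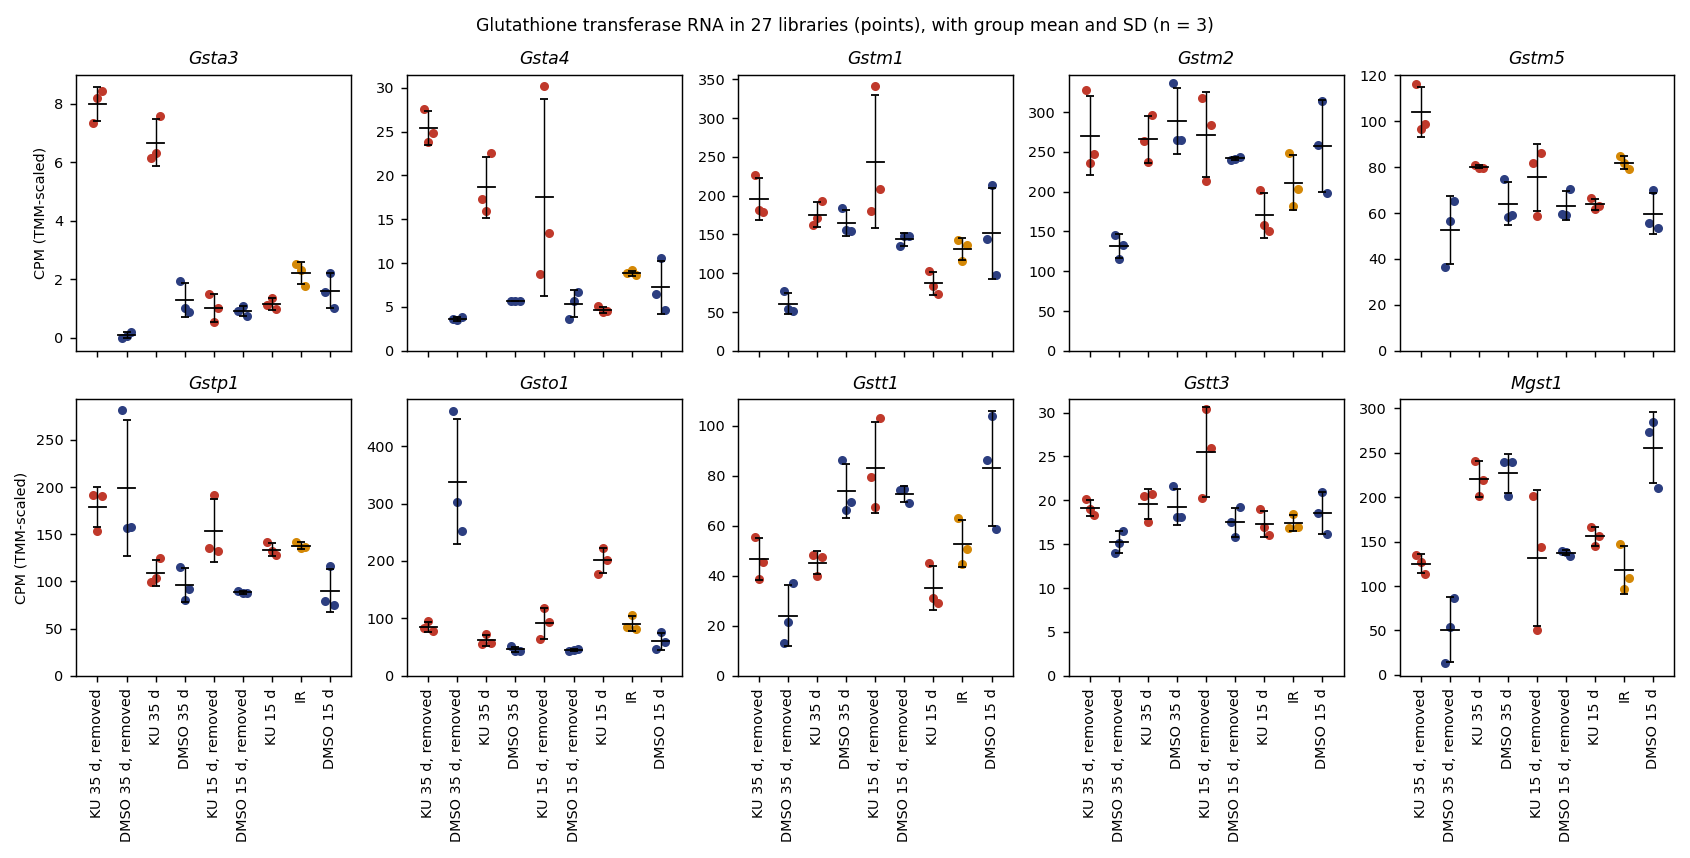
Level of each gene in CPM (y axes, one scale per gene) in the 9 groups (x axis), with points for libraries (red KU60019, orange irradiated, blue DMSO), black lines for group means and bars for SD (n = 3). Gsta3 is highest in the 2 groups kept for 35 d in KU60019, and Gsto1 is highest in DMSO 35 d followed by removal and next in KU60019 15 d.

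The 10 genes together made up 1379 ± 44.2 TPM in KU60019 15 d, against 1767 ± 171 TPM in DMSO 15 d. At 35 d the sum was 1442 ± 62.7 TPM in KU60019 and 1807 ± 35.8 TPM in DMSO. This lower sum is that of TPM. When the group means in CPM are summed, KU60019 is lower at 15 d but not at 35 d. The count fit at 35 d called 2 of the 10 genes as rises and none as falls, with a median log2 fold change of 0.14. Of the 10, 4 were positive in that fit and negative on TPM, and were called in neither. After removal at 35 d the sum was 1559 ± 115 TPM in KU60019 cells and 943 ± 113 TPM in DMSO cells, the lowest of the 9 groups in TPM. The order of the groups differs in summed CPM, where this DMSO group is not the lowest. The make-up of the sum shifted as well. Gsto1 held 21.1% of it in KU60019 15 d, against 5.72% in DMSO 15 d, and 7.32% in KU60019 35 d followed by removal, against 33.4% in its DMSO group. Gstm2 held 25.3% in KU60019 35 d followed by removal and 14.7% in its DMSO group.

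**Figure D2:**
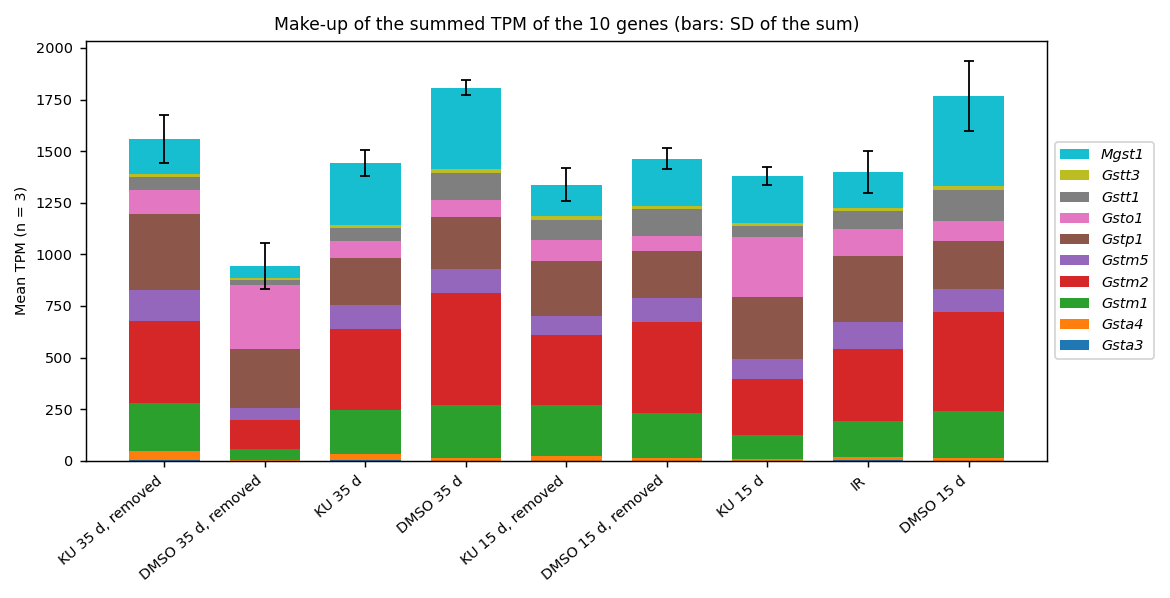
Mean TPM of the 10 genes stacked by group (y axis, n = 3), with bars for the SD of the sum. The sum is lowest, at 943 TPM, in DMSO 35 d followed by removal, where Gsto1 and Gstp1 hold 33.4% and 30.5% of it. In summed CPM that group is not the lowest.

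After 15 d of KU60019, 2 of the 10 genes rose and 3 fell against DMSO 15 d, where 30.3% of the 18684 genes tested were called, 13.2% as rises and 17.1% as falls. Gsto1 and Gstp1 rose, and Gstt1, Gstm1 and Gstm2 fell. The median log2 fold change of the 10 was -0.53, and that of all genes was -0.02. The libraries of the groups did not overlap in 4 of the 10 genes, against 44.6% of all genes. The 5 calls came to 3 without DMSO library S1_705 or S2_715 and to 2 without KU60019 library S5_715 or S6_716. The fibroblast markers summed to 12500 to 15100 CPM in KU60019 15 d and 35000 to 52100 CPM in DMSO 15 d, with 1 of the 10 rising and 5 falling. Of the 12 endothelial markers 9 fell (median -2.83), with sums of 20.6 to 26.5 CPM in KU60019 and 54 to 144 CPM in DMSO, and of the 9 tested macrophage markers 1 rose and 6 fell (median -2.41), with sums of 43.2 to 65 CPM in KU60019 and 51.2 to 110 CPM in DMSO. Epithelial sums were 13.7 to 17.9 CPM in KU60019, of which Krt19 made up 12.8 to 16.8 CPM, and 4.31 to 6.99 CPM in DMSO. Mitochondrial genes held 2.58% to 2.86% of counts in KU60019 and 1.77% to 1.94% in DMSO. The part of these values in the results was not tested.

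After 35 d of KU60019, 2 rose, Gsta3 and Gsta4, and none fell, where 18.1% of all genes were called, 9.7% as rises and 8.4% as falls. The median of the 10 was 0.14 and that of all genes -0.01. Groups did not overlap in 5 of the 10, against 44.4% of all genes. On deposited TPM, limma called 2 rises and 2 falls at 35 d, the falls being Gstt1 and Gstm2. Fibroblast markers summed to 19700 to 21100 CPM in KU60019 and 42900 to 52700 CPM in DMSO, and the 7 Schwann cell markers to 10.9 to 109 CPM in KU60019 and 3.09 to 4.94 CPM in DMSO, with 5 of the 6 tested rising. Mitochondrial genes held 5.08% to 6.61% of counts in KU60019 35 d, the highest of the 9 groups, and 1.61% to 1.73% in DMSO 35 d. The part of these values in the 2 rises was not tested. Whether the effects at 35 d and 15 d differ was tested directly, with 11.7% of all genes called, 7.11% upward and 4.58% downward, and 3 of the 10 were called, Gsta3 and Gsta4 upward and Gsto1 downward.

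In cells harvested 20 d after a 15 d treatment, 5 rose and none fell in the KU60019 group against its DMSO group, where 48.7% of all genes were called, 24.7% as rises and 24% as falls. These were Gsta4, Gsto1, Gstp1, Gstm1 and Gstt3. The groups did not overlap in 5 of the 10, against 56.8% of all genes. On TPM, 2 rose and 1 fell. The fibroblast markers summed to 23700 to 31300 CPM in the KU60019 group, with 7 of the 10 falling, and to 55600 to 63400 CPM in its DMSO group. Of the 6 tested Schwann cell markers 5 rose (median 3.22), with sums of 8.03 to 71.2 CPM in KU60019 cells and 3.18 to 5.67 CPM in DMSO cells. The part of these markers in the results was not tested. The KU60019 effect after removal at 15 d, with 20 more days of culture, was set against that before it. This difference was called in 5 of the 10, all upward, where 25.4% of all genes were called, 14% upward and 11.4% downward.

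In cells harvested 20 d after a 35 d treatment, 7 rose and 1 fell in the KU60019 group against its DMSO group. Of all genes 48.9% were called, 24.4% as rises and 24.5% as falls. Gsto1 fell, Gstp1 and Gstt3 were not called, and the other 7 rose. Groups did not overlap in 9 of the 10, against 49.6% of all genes. The median of the 10 was 1.01 and that of all genes -0.0037. This comparison rests on a DMSO group in which 64.1% of all genes, 31.5% as rises and 32.6% as falls, were called against DMSO 35 d. Between those DMSO groups 2 of the 10 rose and 6 fell, and 9 of the 10 did not overlap, against 62.8% of all genes. On TPM 1 rose and 8 fell there. Both comparisons use the libraries of DMSO 35 d followed by removal. The KU60019 effect after removal at 35 d, with 20 more days of culture, was set against that before it. This difference was called in 6 of the 10, 5 upward and 1 downward. Of all genes 32.4% were called, 15.8% upward and 16.6% downward.

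Irradiated cells were set against the same DMSO 15 d libraries as KU60019 15 d. They had 3 rises and 1 fall among the 10, where 30.9% of all genes were called, 14.1% as rises and 16.8% as falls. Gstm5, Gstp1 and Gsto1 rose and Mgst1 fell. In 4 of the 10 the groups did not overlap, against 43.8% of all genes. On TPM 1 rose and none fell. Of the 12 endothelial markers 1 rose and 10 fell (median -2.45), with sums of 40.5 to 50.4 CPM in irradiated cells and 54 to 144 CPM in DMSO 15 d, and of the 10 fibroblast markers 1 rose and 5 fell, with sums of 18800 to 24800 CPM in irradiated cells and 35000 to 52100 CPM in DMSO 15 d. Mitochondrial genes held 2.37% to 2.61% of counts in irradiated cells and 1.77% to 1.94% in DMSO 15 d, and the part of these values in the results was not tested. The calls numbered 0 without S1_705, S25_705 or S26_715. Without S3_716 all 4 were lost and Gstt1 alone was called instead, and without S27_716 Gsto1 alone stayed called. Each of the 4 was lost without any 1 of at least 4 of the 6 libraries. Without the length-following libraries 0 were called. Between DMSO 35 d and DMSO 15 d none of the 10 was called by edgeR, DESeq2 or limma, with 0 at an unadjusted p under 0.05 and no gene without overlap. Of all genes 1.56% were called there, 0.455% as rises and 1.11% as falls, and 15.3% did not overlap. Between DMSO 15 d followed by removal and DMSO 15 d none was called by these tools, with 2 at an unadjusted p under 0.05, Gsta3 and Mgst1, and 1 without overlap. Of all genes 7.02% were called, 3.78% as rises and 3.24% as falls, and 28.5% did not overlap.

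**Figure D3:**
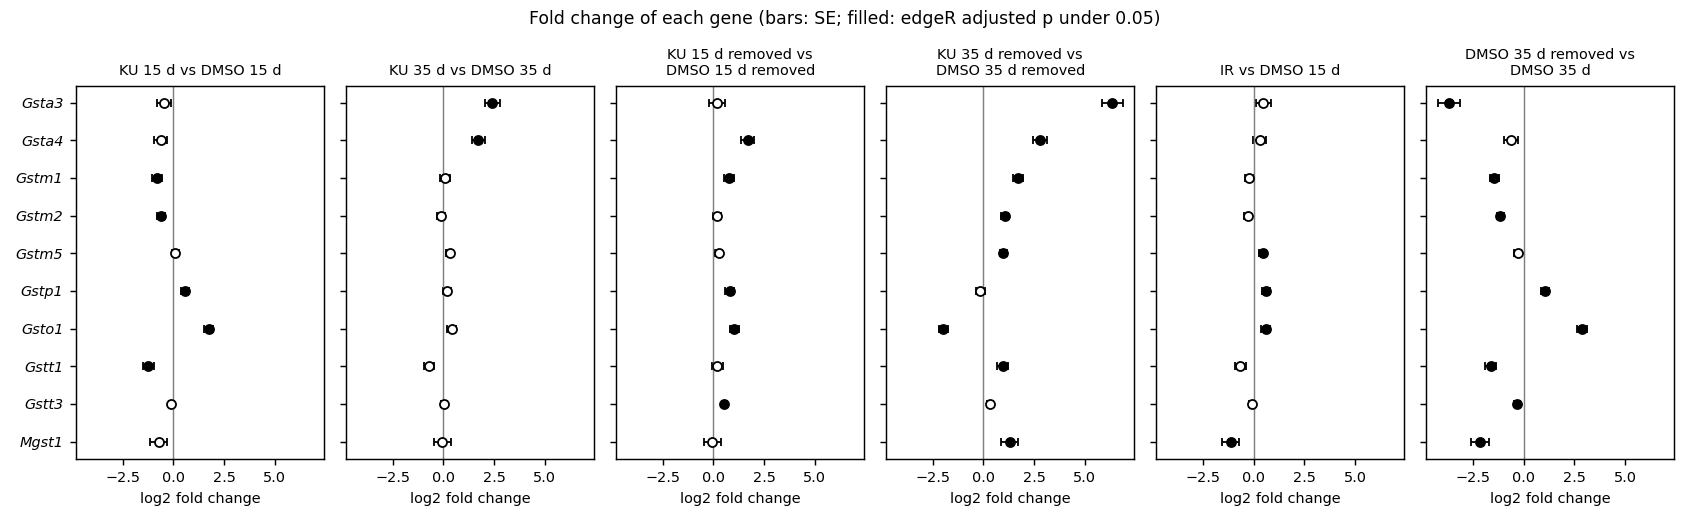
Log2 fold change (x axis) of the 10 genes (rows) in 6 comparisons (panels), with bars for SE and filled points for an edgeR adjusted p under 0.05. Gsto1 is 1.75 higher in KU60019 15 d and -1.99 in KU60019 35 d followed by removal, where 8 other genes lie to the right of 0 and 7 of them were called.

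Gsta3 (ENSMUSG00000025934, GRCm38 chromosome 1, 21240589 to 21265661, plus strand) encodes an alpha class enzyme known in mouse for conjugating the epoxide of aflatoxin B1. It had 6.13, 6.30 and 7.58 CPM in KU60019 35 d, against 1.94, 1.01 and 0.877 CPM in DMSO 35 d. Every KU60019 library lay above every DMSO library. The log2 fold change was 2.41 ± 0.36 (adjusted p = 7.62e-05). With the 2 length-following libraries of DMSO 35 d left out, so that 1 DMSO library remained and was assumed to vary like the other groups, the change was 1.79 ± 0.51 with an adjusted p of 0.0928. Bulk libraries cannot tell a change in the number of cells that make an RNA from a change in RNA per cell.

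After 15 d of KU60019 Gsta3 had 1.13, 1.36 and 0.963 CPM, against 1.56, 2.22 and 1.02 CPM in DMSO 15 d. The ranges overlapped, and the gene was not called (-0.46 ± 0.36, adjusted p = 0.363). The effect at 35 d exceeded that at 15 d by 2.86 ± 0.51 (adjusted p = 0.000802). Among cells whose 35 d treatment had ended, KU60019 libraries had 7.33, 8.19 and 8.44 CPM, against 0, 0.0441 and 0.194 CPM in DMSO. That is 717 reads in the KU60019 group and 6 in the DMSO group (6.36 ± 0.52, adjusted p = 1.8e-09). Of the 6 reads 5 were in library S21_716, and without it the change was 8.04. The level after removal in KU60019 cells, 7.99 ± 0.58 CPM, overlapped that before removal, 6.67 ± 0.79 CPM, while the DMSO groups stood at 0.0793 ± 0.102 CPM after removal and 1.27 ± 0.579 CPM before it (-3.69 ± 0.55, adjusted p = 7.74e-06). The difference of the effects after and before removal was 3.95 ± 0.66 (adjusted p = 0.000109). Without S21_716 the change between the DMSO groups was -5.35 and this difference 5.62. The values after 15 d of treatment and removal were 1.02 ± 0.484 CPM in KU60019 cells and 0.907 ± 0.168 CPM in DMSO cells, and the gene was not called. Irradiated cells had 2.52, 2.31 and 1.78 CPM, overlapping the range of DMSO 15 d.

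Gsta4 (ENSMUSG00000032348, chromosome 9, 78182774 to 78209349, plus strand) encodes the alpha class enzyme with high activity towards 4-hydroxynonenal, a product of lipid peroxidation. It had 17.3, 15.95 and 22.6 CPM in KU60019 35 d, against 5.63, 5.66 and 5.68 CPM in DMSO 35 d. The groups were far apart and the DMSO libraries nearly equal (1.72 ± 0.32, adjusted p = 0.000618). Without the length-following libraries the change was 1.74 ± 0.48, with an adjusted p of 0.0767. At 15 d Gsta4 had 5.08, 4.47 and 4.49 CPM in KU60019 and 6.47, 10.6 and 4.68 CPM in DMSO (-0.63 ± 0.32, adjusted p = 0.141), and the difference between the 2 times was 2.34 ± 0.45 (adjusted p = 0.00143). Without the length-following libraries that difference was 2.92 for Gsta4, still called (adjusted p = 0.0289), and 2.73 for Gsta3, not called (adjusted p = 0.0545).

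Gsta4 was called after removal at 15 d. KU60019 libraries had 8.81, 30.2 and 13.5 CPM, against 3.69, 5.68 and 6.73 CPM in DMSO. The ranges did not overlap, but library S11_715 of the KU60019 group held the highest value of all 27. The log2 fold change was 1.70 ± 0.32 (adjusted p = 0.000398), and 1.04 without that library (adjusted p = 0.00443). The effect after removal exceeded that before by 2.33 ± 0.45 (adjusted p = 0.000881). After removal at 35 d the values were 27.5, 23.9 and 24.8 CPM in KU60019 and 3.63, 3.49 and 3.92 CPM in DMSO, and the KU60019 libraries were the highest group of the 9 (2.79 ± 0.34, adjusted p = 6.23e-07). Irradiated cells had 8.87 ± 0.284 CPM, against 7.25 ± 3.04 CPM in DMSO 15 d (0.30 ± 0.31, adjusted p = 0.497).

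Gsto1 (ENSMUSG00000025068, chromosome 19, 47854970 to 47864790, plus strand) encodes an omega class enzyme that acts as a thiol transferase and reduces dehydroascorbate. It had 178, 223 and 202 CPM in KU60019 15 d, against 45.8, 75.4 and 58.2 CPM in DMSO 15 d. Every treated library had more than every DMSO library, and the rise was the largest of the 10 genes in that comparison (1.75 ± 0.22, adjusted p = 5.22e-06). It was 1.41 ± 0.36 without the length-following libraries (adjusted p = 0.0213). At 35 d Gsto1 had 55.2, 72.2 and 57.9 CPM in KU60019 and 51.1, 43.7 and 43.9 CPM in DMSO. These ranges did not overlap either, yet the gene was not called (0.42 ± 0.22, adjusted p = 0.189), and the effect was lower than at 15 d (-1.33 ± 0.31, adjusted p = 0.00611). Without the length-following libraries this difference was -1.13 for Gsto1 and not called (adjusted p = 0.273).

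After removal at 15 d Gsto1 had 63.2, 118 and 93.1 CPM in KU60019 cells and 43.1, 44.6 and 46.9 CPM in DMSO cells, with no overlap (1.03 ± 0.22, adjusted p = 0.000885). On TPM the change was 0.409 (limma adjusted p = 0.0461), and limma without a filter did not call it (adjusted p = 0.084). All 3 of these DMSO libraries are length-following ones. After removal at 35 d the direction turned, with 82.7, 95.5 and 78.3 CPM in KU60019 cells and 461, 302 and 252 CPM in DMSO cells (-1.99 ± 0.22, adjusted p = 2.16e-07). The DMSO group's mean of 338 ± 109 CPM was the highest of the 9 groups and compared with 46.2 ± 4.21 CPM in DMSO 35 d (2.87 ± 0.23, adjusted p = 1.75e-09). The KU60019 groups had 85.5 ± 8.92 CPM after removal and 61.7 ± 9.14 CPM before it. Library S19_705 of DMSO 35 d followed by removal was the highest in CPM, and without it the change was -1.7 (adjusted p = 9.21e-07). The effect after removal differed from that before by -2.40 ± 0.31 (adjusted p = 5.48e-06). Irradiated cells had 85.3, 106 and 81.0 CPM, above all 3 libraries of DMSO 15 d (0.60 ± 0.22, adjusted p = 0.0381). That call was lost without library S1_705 (0.442, adjusted p = 0.195), S3_716 (0.582, adjusted p = 0.105), S25_705 (0.651, adjusted p = 0.0578) or S26_715 (0.476, adjusted p = 0.168).

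Gstm1, Gstm2 and Gstm5 (ENSMUSG00000058135, ENSMUSG00000040562 and ENSMUSG00000004032) are mu class genes within 1 cluster on chromosome 3, at 108012255 to 108017973 and 107981702 to 107986453 on the minus strand and 107895821 to 107898686 on the plus strand. Mu class enzymes conjugate a wide range of aromatic electrophiles. Of the 50-base stretches of their transcripts, 18.9% in Gstm1, 5.65% in Gstm2 and 9.44% in Gstm5 also occur in another gene, and Gstm5 shares 178 exonic bases with an antisense gene, so their separate values are uncertain to that extent. Gstm1 had 104, 83.9 and 73.8 CPM in KU60019 15 d, against 144, 214 and 97.4 CPM in DMSO 15 d. The lowest DMSO library lay inside the KU60019 range, and the fall (-0.80 ± 0.24, adjusted p = 0.0136) was lost without DMSO library S2_715 (-0.463, adjusted p = 0.117), KU60019 library S5_715 (-0.772, adjusted p = 0.0545) or KU60019 library S6_716 (-0.691, adjusted p = 0.0732). Gstm2 had 202, 159 and 150 CPM in KU60019 and 259, 314 and 199 CPM in DMSO, with overlap at a single pair of libraries. Its fall (-0.60 ± 0.18, adjusted p = 0.0174) was lost without any 1 of 4 libraries, with adjusted p from 0.0508 to 0.0903. Those are S1_705 (-0.595) and S2_715 (-0.421) of DMSO and S5_715 (-0.545) and S6_716 (-0.509) of KU60019. With only the compared groups in the fit, neither fall was called (adjusted p = 0.0821 for Gstm1 and 0.0709 for Gstm2). Without the length-following libraries the falls were called, at -1.29 for Gstm1 (adjusted p = 0.0112) and -0.883 for Gstm2 (adjusted p = 0.0362). Gstm5 stood at 63.8 ± 2.49 CPM in KU60019 15 d and 59.8 ± 9.08 CPM in DMSO 15 d and was not called (0.10 ± 0.17, adjusted p = 0.701).

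None of the 3 mu class genes was called at 35 d by edgeR, with log2 fold changes of 0.09 ± 0.24 for Gstm1, -0.12 ± 0.18 for Gstm2 and 0.32 ± 0.17 for Gstm5. Among cells whose 35 d treatment had ended, all 3 were higher in KU60019 cells than in DMSO cells. Gstm1 had 227, 181 and 179 CPM in KU60019 cells, against 76.9, 54.1 and 51.7 CPM in DMSO cells (1.68 ± 0.24, adjusted p = 6.13e-06). For Gstm2 the values were 327, 236 and 248 CPM in KU60019 cells and 145, 115 and 133 CPM in DMSO cells (1.04 ± 0.19, adjusted p = 7.79e-05). Gstm5 had 116, 96.5 and 98.7 CPM in KU60019 cells and 36.4, 56.5 and 65.1 CPM in DMSO cells (0.98 ± 0.17, adjusted p = 6.39e-05). In none of the 3 did the groups overlap. In KU60019 cells the means before and after removal were 175.5 and 195.4 CPM for Gstm1 and 265.8 and 270.5 CPM for Gstm2, with overlap. For Gstm5 they were 80.1 and 103.8 CPM, without overlap. These changes within KU60019 cells were not tested. The DMSO group again held the low end, since Gstm1 (-1.44 ± 0.24, adjusted p = 2.83e-05) and Gstm2 (-1.14 ± 0.19, adjusted p = 2.15e-05) fell there against DMSO 35 d. Gstm5 did not pass in that comparison (-0.28 ± 0.17, adjusted p = 0.15). After removal at 15 d Gstm1 had 180.5, 341 and 209 CPM in KU60019 cells and 134, 148 and 149 CPM in DMSO cells (0.76 ± 0.24, adjusted p = 0.0116), and without KU60019 library S11_715 the change was 0.436 and not called (adjusted p = 0.139). Nor was that change of Gstm1 called by limma on TPM (0.14, adjusted p = 0.496). In irradiated cells Gstm5 had 84.8, 81.7 and 79.2 CPM, against 55.9, 70.1 and 53.3 CPM in DMSO 15 d (0.46 ± 0.17, adjusted p = 0.0445), a call lost without any 1 of 5 of the 6 libraries, with values from 0.377 to 0.477.

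Gstp1 (ENSMUSG00000060803, chromosome 19, 4035407 to 4037985, minus strand) encodes the pi class enzyme, also known as an inhibitor of the stress kinase JNK. Of its 50-base stretches, 33.7% occur in the neighbouring copy Gstp2 and 20.3% in the pseudogene Gstp-ps. Over all libraries Gstp1 held 108097 reads, Gstp2 99189 and Gstp-ps 109788. How reads were divided among the 3 was not tested, and each change is given below also for their summed reads. Gstp1 had 141, 132 and 128 CPM in KU60019 15 d, against 79.1, 117 and 75.0 CPM in DMSO 15 d, with no overlap. The rise (0.57 ± 0.21, adjusted p = 0.04) was lost without any library other than S2_715 of DMSO, with adjusted p from 0.069 to 0.171, and for the summed copies it was 0.63 ± 0.29 (adjusted p = 0.103). The values without S1_705 and S3_716 of DMSO were 0.477 and 0.447, and those without S4_705, S5_715 and S6_716 of KU60019 were 0.521, 0.577 and 0.603. Without the length-following libraries the change of Gstp1 was 0.198 (adjusted p = 0.753). After removal at 15 d Gstp1 had 136, 192 and 133 CPM in KU60019 cells and 89.9, 87.7 and 87.3 CPM in DMSO cells (0.80 ± 0.21, adjusted p = 0.00352), and the summed copies rose by 1.23 ± 0.29 (adjusted p = 0.00186). On TPM the change of Gstp1 was 0.209 and not called by limma (adjusted p = 0.115).

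Among cells whose 35 d treatment had ended, Gstp1 had 192, 154 and 191 CPM in KU60019 cells and 282, 157 and 158 CPM in DMSO cells. The ranges overlapped and the gene was not called (-0.15 ± 0.21, adjusted p = 0.561). Its sign changed with the scaling and with 1 library. The change was 0.184 without library S19_705 of DMSO (adjusted p = 0.444) and 0.208 with library size alone (adjusted p = 0.296), and on TPM limma called it as a rise (0.375, adjusted p = 0.00985). The summed copies gave -0.41 ± 0.29 (adjusted p = 0.239). The DMSO cells after removal had more Gstp1 than DMSO 35 d, with 115, 80.4 and 91.8 CPM (1.05 ± 0.21, adjusted p = 0.000162), as had their summed copies (1.60 ± 0.29, adjusted p = 7.56e-05), but on TPM limma did not call it (0.169, adjusted p = 0.182). Irradiated cells had 142, 135 and 137 CPM (0.61 ± 0.21, adjusted p = 0.0274 against DMSO 15 d). This was lost for the summed copies (0.75 ± 0.29, adjusted p = 0.0517) and without any library other than S2_715, with values from 0.492 to 0.626.

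Gstt1 and Gstt3 (ENSMUSG00000001663 and ENSMUSG00000001665, chromosome 10, 75783813 to 75798584 and 75774115 to 75781414, minus strand) are neighbouring theta class genes. Gstt1 encodes an enzyme that conjugates small halogenated hydrocarbons. Gstt1 had 45.1, 31.1 and 29.1 CPM in KU60019 15 d, against 86.2, 104 and 58.6 CPM in DMSO 15 d. All treated libraries were lower (-1.24 ± 0.27, adjusted p = 0.00142), and without the length-following libraries the fall was -1.57 ± 0.37 (adjusted p = 0.0147). At 35 d Gstt1 had 48.3, 40.01 and 47.4 CPM in KU60019 and 86.4, 66.5 and 69.4 CPM in DMSO. The ranges were again apart, but the gene did not pass (-0.71 ± 0.27, adjusted p = 0.068). It did pass with the length trend removed (-0.87 ± 0.24, adjusted p = 0.0136). The difference between the effects at 35 d and 15 d did not pass its test. Irradiated cells had 63.0, 44.6 and 50.9 CPM of Gstt1, and 1 of these lay above the lowest DMSO 15 d library (-0.65, adjusted p = 0.0681).

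After removal at 15 d Gstt1 had 83.3 ± 18.1 CPM in KU60019 cells and 72.8 ± 3.15 CPM in DMSO cells (0.20 ± 0.27, adjusted p = 0.563), and this effect exceeded that before removal by 1.44 ± 0.38 (adjusted p = 0.0091). Removal at 35 d left it at 55.5, 38.9 and 45.7 CPM in KU60019 cells and 13.3, 21.6 and 37.2 CPM in DMSO cells, with no overlap (0.95 ± 0.27, adjusted p = 0.00604). The change of Gstt1 was 0.664 without DMSO library S19_705 (adjusted p = 0.0407) and 1.43 without S21_716 (adjusted p = 0.000141), and with only the compared groups in the fit it was not called (adjusted p = 0.0677). In the DMSO group itself Gstt1 fell against DMSO 35 d (-1.62 ± 0.28, adjusted p = 3.37e-05). Gstt3 varied least of the 10 in group means of CPM. It was called in 1 KU60019 comparison, after removal at 15 d, with 20.2, 30.4 and 25.96 CPM in KU60019 cells and 17.5, 15.8 and 19.2 CPM in DMSO cells (0.55 ± 0.14, adjusted p = 0.00288). On TPM that change was -0.0342. Gstt3 overlaps the gene Gm20441 on the same strand over 524 exonic bases, and 12.5% of its 50-base stretches occur in another gene. Between the DMSO groups at 35 d it fell after removal (-0.34 ± 0.14, adjusted p = 0.0379), a call lost without S13_705 (-0.24), S15_716 (-0.372), S19_705 (-0.282) or S20_715 (-0.337).

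Mgst1 (ENSMUSG00000008540, chromosome 6, 138140316 to 138156755, plus strand) encodes a microsomal enzyme of a separate protein family that conjugates electrophiles and reduces lipid peroxides. It had 166, 145 and 156 CPM in KU60019 15 d, against 273, 285 and 210.1 CPM in DMSO 15 d. The ranges were apart, but the gene was not called (-0.72 ± 0.41, adjusted p = 0.198). At 35 d KU60019 cells had 220.4 ± 20.0 CPM and DMSO cells 227 ± 22 CPM (-0.04 ± 0.41, adjusted p = 0.957). With 35 d of treatment followed by removal, Mgst1 had 135, 127 and 114 CPM in KU60019 cells and 13.1, 53.8 and 86.0 CPM in DMSO cells. All KU60019 libraries were higher (1.29 ± 0.42, adjusted p = 0.0141), and without DMSO library S19_705, the lowest of all 27, the change was 0.838 (adjusted p = 0.0464). With only the compared groups in the fit that change was not called (adjusted p = 0.107). Against DMSO 35 d the DMSO cells had less Mgst1 (-2.15 ± 0.43, adjusted p = 0.00019). Irradiated cells had 148, 96.5 and 109 CPM, below all libraries of DMSO 15 d (-1.12 ± 0.42, adjusted p = 0.0449), and that call was lost without any 1 of the 6 libraries, with values from -1.31 to -0.992.

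Libraries S11_715 of KU60019 15 d followed by removal and S19_705 of DMSO 35 d followed by removal stood apart from their groups in the CPM of several of these genes. The KU60019 library had 30.2 CPM of Gsta4, 341 CPM of Gstm1 and 50.3 CPM of Mgst1. The DMSO library had 461 CPM of Gsto1, 282 CPM of Gstp1 and 13.1 CPM of Mgst1. Its TMM factor of 0.694 was the lowest of the 27, and a low factor raises the CPM of a library. In TPM its group had 311 ± 13.1 for Gsto1, and 306, 257 and 290 for Gstp1. In DMSO 35 d followed by removal the summed fibroblast markers were 14000 to 18300 CPM, against 42900 to 52700 CPM in DMSO 35 d, with all 10 detected. The mesothelial markers were 20.9 to 148 CPM after removal, against 4.42 to 6.41 CPM in DMSO 35 d, and the epithelial markers 25 to 71.8 CPM after removal, against 2.51 to 3.06 CPM in DMSO 35 d. Each sum was carried by 1 keratin, Krt7 of the mesothelial list with 17.9 to 131 CPM and Krt19 of the epithelial list with 23.5 to 67.4 CPM after removal. Against DMSO 35 d, 3 of 6 tested mesothelial markers rose and 1 fell (median 2.59). Of 4 tested epithelial markers 2 rose and 1 fell (median 1.49), where 64.1% of all genes were called. In DMSO 35 d Krt7 had 0.974 to 2.24 CPM and Krt19 1.2 to 1.71 CPM. Epcam and Cdh1 stayed at or below 0.133 CPM in all 27 libraries. Krt8, Scgb3a2 and the mesothelial Muc16 were at 0 in DMSO 35 d followed by removal, and at or below 0.14 CPM in all 27 libraries. In the KU60019 group after removal at 35 d the fibroblast sum was 12300 to 15400 CPM, the mesothelial sum 9.24 to 16.2 CPM and the epithelial sum 7.29 to 8.85 CPM. Against the DMSO group after removal, 5 of 6 tested Schwann cell markers (median 6.75), 3 of 4 adipocyte markers (median 2.42) and 3 of 9 macrophage markers (median 1.97) rose and none of these lists had a fall. Adipocyte sums were 391 to 829 CPM in KU60019 cells and 192 to 343 CPM in DMSO cells, macrophage sums 87.9 to 122 CPM in KU60019 cells and 24.4 to 35.2 CPM in DMSO cells, and Schwann cell sums 7.64 to 37.8 CPM in KU60019 cells and 11.2 to 20.5 CPM in DMSO cells. Mitochondrial genes held 2.96% to 3.31% of counts in KU60019 35 d followed by removal, 1.85% to 3.77% in its DMSO group and 1.61% to 1.73% in DMSO 35 d. The part of these values in the results for removal at 35 d was not tested.

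Across the 27 libraries, which share groups and depth, Gstm1 and Gstm2 were the most alike of the 10 (Pearson r of log2 CPM 0.85), and Gsto1 was most like Gstp1 (0.731). Gsto1 was least like Gstm2 (-0.802) and Gstt1 (-0.8). In the plot of Gsto1 against Gstm2 the libraries of DMSO 35 d followed by removal and of KU60019 15 d fill the end with high Gsto1 and low Gstm2. Among 10105 protein-coding genes outside the family, the 3 most like Gsta3 were Mpv17l (0.939), Gprasp2 (0.935) and Sqor (0.934). Those most like Gsto1 were Acot9 (0.981), Hmga1b (0.965) and Hmga1 (0.962), and those most like Gsta4 were Fbxo36 (0.945), Ager (0.928) and Mfap1b (0.919).

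**Figure D4:**
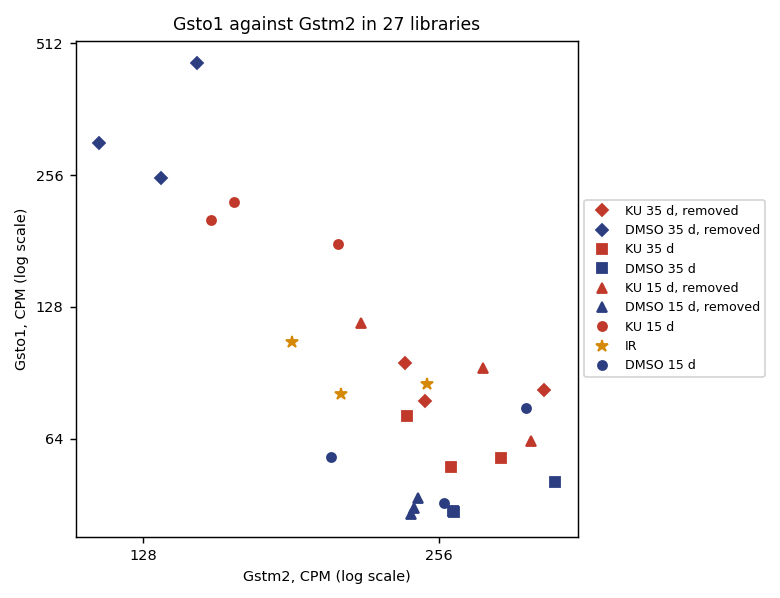
Gsto1 (y axis) against Gstm2 (x axis) in CPM on log scales, 1 point per library (red KU60019, orange irradiated, blue DMSO, shapes for times). The 3 libraries of DMSO 35 d followed by removal lie at 252 to 461 CPM of Gsto1 and 115 to 145 CPM of Gstm2.

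The rest of the family and the pathway around it were read from lists, given here by counts. Over all genes the shares called were 30.3% in KU60019 15 d, 18.1% in KU60019 35 d, 48.7% after removal at 15 d, 48.9% after removal at 35 d, 30.9% in irradiated cells and 64.1% between the DMSO groups at 35 d. Of 21 other family members listed, 19 were matched and 14 tested. Of these, 2 rose and 4 fell in KU60019 15 d, 5 rose and none fell in KU60019 35 d, 5 rose and 2 fell after removal at 15 d, and 7 rose and none fell after removal at 35 d. In irradiated cells 5 rose and none fell, and between DMSO 35 d followed by removal and DMSO 35 d 4 rose and 4 fell. Thus 7 of the 14 were called after removal at 15 d, where 48.7% of all genes were, and 5 of the 14 at 35 d, where 18.1% were. The mu class gene Gstm6 was among the rises in KU60019 15 d (0.71 ± 0.25, adjusted p = 0.0349), with Ptges, which encodes a prostaglandin synthase of the microsomal family (0.48 ± 0.17, adjusted p = 0.0367). The falls at 15 d were Mgst2 (-1.06 ± 0.26, adjusted p = 0.00416), Gstk1 (-0.83 ± 0.16, adjusted p = 0.000507), Gstz1 (-0.45 ± 0.10, adjusted p = 0.00257) and Gstm4 (-0.35 ± 0.13, adjusted p = 0.0369). Gstk1 encodes a mitochondrial and peroxisomal transferase and Gstz1 an enzyme of tyrosine breakdown.

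At 35 d the 5 that rose were Gstm6 (1.69 ± 0.25, adjusted p = 7.47e-05), Gsto2 (1.25 ± 0.26, adjusted p = 0.0016), Mgst2 (0.91 ± 0.26, adjusted p = 0.0172), Mgst3 (0.67 ± 0.21, adjusted p = 0.0314) and Gstm4 (0.54 ± 0.13, adjusted p = 0.00456). Gstm6 had 11.8 ± 1.93 CPM in KU60019 35 d and 3.70 ± 0.947 CPM in DMSO 35 d. The 7 rises after removal at 35 d were Gstm6 (3.03), Gstm4 (1.96), Gsto2 (1.49), Mgst2 (1.36), Gstm7 (1.32), Gstk1 (1.16) and Gstz1 (0.32). After removal at 15 d the 5 rises were the near copies Gstp2 (1.59) and Gstp-ps (1.31), Mgst3 (1.13), Gstt2 (0.62) and Gstk1 (0.48), and the falls were Gstcd (-0.56) and Gstm4 (-0.34). Irradiated cells had more Gsto2 (1.04), Gstm6 (0.92), Ptges (0.85), Gstp-ps (0.84) and Gstm4 (0.54).

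Among 19 genes of glutathione synthesis, recycling and supply, 5 rose and 5 fell in KU60019 15 d and 2 rose and 3 fell in KU60019 35 d. After removal the counts were 4 and 5 at 15 d and 7 and 3 at 35 d, and in irradiated cells 5 and 3. The called genes of this list were 10 of 19 in KU60019 15 d (30.3% of all genes), 5 in KU60019 35 d (18.1%), 9 after removal at 15 d (48.7%), 10 after removal at 35 d (48.9%) and 8 in irradiated cells (30.9%). Gss, which encodes glutathione synthetase, rose at both times (1.34 ± 0.16, adjusted p = 2.2e-06, and 0.69 ± 0.16, adjusted p = 0.00363). Chac1, which breaks glutathione down, rose at 15 d (1.85 ± 0.39, adjusted p = 0.00111), and Oplah, which opens 5-oxoproline, fell (-1.21 ± 0.19, adjusted p = 5.2e-05). Ggt5, a gamma-glutamyl transferase, fell at 15 d to 0.0676 CPM in KU60019, against 1.20 CPM in DMSO (-4.03 ± 0.63, adjusted p = 5.62e-05). Of 20 tested genes that use glutathione or handle its conjugates, 3 rose and 4 fell at 15 d and 3 rose and 2 fell at 35 d. After removal 9 rose and 4 fell at 15 d and 3 rose and 7 fell at 35 d, and irradiated cells had 4 rises and 2 falls. Called were 7 of 20 at 15 d (30.3% of all genes), 5 at 35 d (18.1%), 13 after removal at 15 d (48.7%), 10 after removal at 35 d (48.9%) and 6 in irradiated cells (30.9%). The S-formylglutathione hydrolase gene Esd rose at both times (1.40 ± 0.21 and 0.90 ± 0.21), as did the aminoacylase gene Acy1 (0.78 ± 0.13 and 0.48 ± 0.13), and the exporter gene Abcc5 fell at both (-0.82 ± 0.16 and -0.75 ± 0.16). Gpx3, a secreted glutathione peroxidase, fell at 15 d (-1.09 ± 0.23, adjusted p = 0.00137).

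Of 18 tested genes for factors that act on these promoters and their marker targets, 6 rose and 4 fell at 15 d and 3 rose and 3 fell at 35 d. After removal none rose and 5 fell at 15 d, and 7 rose and 2 fell at 35 d. That is 10 of 18 in KU60019 15 d (30.3% of all genes), 6 in KU60019 35 d (18.1%), 5 after removal at 15 d (48.7%) and 9 after removal at 35 d (48.9%). The NRF2 targets Hmox1, which encodes heme oxygenase, and Nqo1, a quinone reductase, rose at both times. Hmox1 changed by 2.42 ± 0.22 (adjusted p = 1.07e-07) and 1.20 ± 0.21 (adjusted p = 0.000352), and Nqo1 by 1.25 ± 0.23 (adjusted p = 0.000283) and 0.94 ± 0.23 (adjusted p = 0.0059). Bach1, a repressor of such targets, fell at both times (-1.27 ± 0.23 and -0.72 ± 0.23), and the small MAF gene Maff rose at 15 d (1.51 ± 0.24, adjusted p = 6.02e-05). With removal at 35 d, Nqo1 had 31.6 CPM in KU60019 cells and 94.2 CPM in DMSO cells (-1.58 ± 0.23, adjusted p = 6.11e-06), the same direction as Gsto1, while Hmox1 was higher in KU60019 cells (1.41 ± 0.21, adjusted p = 9.58e-06). Irradiated cells had 8 rises and 4 falls in this list, against 30.9% of all genes called, with Hmox1 (1.75 ± 0.21) and Nqo1 (1.27 ± 0.23) among the rises.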

How the data were processed

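TruSeq kits were used for the total RNA libraries, per the labels' protocols. Analysed first were the authors' deposited raw counts of reads per gene, from featureCounts and the mm10 genome as named in the submitters' processing notes, and the authors' second deposited unit is TPM. Aligner, annotation release, versions and use of strand: not given in the sources used here. Symbols and GRCm38 positions came from GENCODE M21, and 48058 of 48440 IDs had a symbol. Promoters are RefSeq's.

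The main test was edgeR's quasi-likelihood F-test (version 4.0.16, R 4.3.3) with TMM factors. Genes were kept by filterByExpr (smallest count 10), the 9 group means of all 27 libraries shared 1 fit, and p-values were adjusted by Benjamini-Hochberg over the 18684 genes kept, in 8 comparisons of 2 groups and 3 differences of effects. Each SE is approximate, taken from the fold change and F. Shared 50-base stretches were counted in GENCODE transcripts. On simulated data for KU60019 15 d against DMSO 15 d (18684 genes, 200 changed), edgeR recovered 53.3% of 2-fold and 96.3% of 4-fold changes and called 9 unchanged genes. The other groups were simulated without changes. With a length trend of a set size added to DMSO libraries S1_705 and S3_716, the same test called 552 unchanged genes. It called 13 with that trend removed.

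The 10 genes and the lists were chosen with earlier results of these data known. All 10 were named, with other family members that were called, the 4 list members of lowest p in the direct KU60019 comparisons, and the 3 genes of highest Pearson r for the 3 members of widest range. Predicted and clone names were left out of these. Alternatives were RLE factors, library size alone, no filter, DESeq2 1.42.0, limma 3.58.1 on log2(TPM + 1), filtered on low values or not, and on log2(TPM + 0.1), a replicate block, only the compared groups, the length trend removed, each library left out and other controls for irradiation. Summed Gstp copies and the fit without length-following libraries were added after the data were seen.

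Between replicates the smallest chi-square per gene was 7.21, above sampling noise. Same-numbered libraries of KU60019 15 d and DMSO 15 d deviated together (r from 0.219 to 0.393), which meets the rule for pairing. In the other comparisons this did not hold in every pair.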

Additional observations from a re-analysis of the deposited data

Results flagged for a closer look

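These results were marked because the effect of KU60019 differed between 2 settings by a test of the difference itself, given as the difference of log2 fold changes with edgeR's adjusted p below 0.05. Between 35 d and 15 d of treatment, Gsta3 differed by 2.86, Gsta4 by 2.34 and Gsto1 by -1.33, where 11.7% of all genes were called. Between 20 d after removal at 15 d and before it, Gsta4 differed by 2.33, Gstm1 by 1.56, Gstm2 by 0.764, Gstt1 by 1.44 and Gstt3 by 0.644, where 25.4% of all genes were called. Between 20 d after removal at 35 d and before it, Gsta3 differed by 3.95, Gstm1 by 1.59, Gstm2 by 1.16, Gstm5 by 0.655, Gsto1 by -2.4 and Gstt1 by 1.66, where 32.4% of all genes were called. The last 6 differences include the DMSO group in which 64.1% of genes had changed against DMSO 35 d. When 1 library was left out, Gstm2 lost its removal difference at 15 d in 9 of 12 fits, Gstt3 in 4 of 12 and Gstm5 its removal difference at 35 d in 8 of 12, always with the same sign. KU60019 and DMSO changes cannot be told apart in a difference of effects, and the levels of each group stand in the text above. Nor can removal be told apart from 20 more days of culture. No explanation was tested.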

How the results depend on the processing

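Counts of the 10 genes called were recomputed under each alternative. The share of all genes called in each such fit is not given beside them, so these counts do not show a change particular to the 10. Those for KU60019 15 d (5) came to 3 with only the compared groups and to 2 to 4 when 1 library was left out. For KU60019 35 d (2) they were 4 with limma on log2(TPM + 1), 5 with only the compared groups, 0 without length-following libraries and 2 throughout when 1 library was left out. After removal at 15 d (5) limma gave 3 on log2(TPM + 1), 3 on log2(TPM + 0.1) and 1 unfiltered, and leaving out a library 4 to 5. After removal at 35 d (8) the count was 10 in each TPM fit, 9 with library size alone, 6 with only the compared groups and 8 to 9 when 1 library was left out. Irradiation (4) gave 2 with library size alone, 2 without a filter, 1 with each TPM fit, 1 with DMSO 35 d as control, 9 with DMSO 35 d followed by removal as control, 0 without length-following libraries and 0 to 3 when 1 library was left out. DMSO 35 d against DMSO 15 d stayed at 0, and DMSO 15 d followed by removal against DMSO 15 d gave 1 with only the compared groups and otherwise 0. DMSO 35 d followed by removal against DMSO 35 d (8) gave 10 with library size alone, 7 to 9 in the other fits and 7 to 9 when 1 library was left out. The difference between 35 d and 15 d (3) gave 1 without length-following libraries and 3 to 4 when 1 library was left out. The removal difference at 15 d (5) gave 3 without a filter, 3 in each TPM fit, 3 with only the compared groups and 3 to 5 when 1 library was left out, and that at 35 d (6) gave 10 in each TPM fit and 5 to 7. The cause was not tested, except that left-out libraries leave fewer samples.

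Among genes called in the count fit or on TPM, signs turned on TPM for Gstm2 (-0.418 and -0.42) and Gstt3 (-0.0342, -0.0363 and -0.0342) after removal at 15 d, for Gstp1 after removal at 35 d (0.375, 0.376 and 0.375) and for its removal difference (0.533, 0.534 and 0.533). Signs also turned on log2(TPM + 1) for genes called in neither fit, namely 3 after removal at 15 d (Gsta3, Gstm5 and Gstt1), 4 in KU60019 35 d (Gstm1, Gstm5, Gstp1 and Gstt3), Gstm5 in KU60019 15 d and its removal difference at 15 d, Gstp1 in that same difference and Gstt3 in the difference between 35 d and 15 d. TPM moved the median of all genes by -0.469 after removal at 15 d and by 0.319 after removal at 35 d. With DMSO 35 d followed by removal as control for irradiation, Gstm1 (1.11), Gstm2 (0.688), Gstp1 (-0.529), Gsto1 (-1.9), Gstt1 (1.13) and Mgst1 (1.2) turned. With the replicate number as a block, 5 genes were called in KU60019 15 d, 2 up and 3 down, as without it, and the irradiation count was 3, with Gstm5 lost (adjusted p = 0.0565). The block changed no other call of the 10 genes. Without length-following libraries 1652 genes were called in KU60019 15 d, against 5658, and 376 in KU60019 35 d, against 3381. No such fit was possible after removal at 15 d, where the DMSO group had no library left.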
